A study of Mus musculus with 30 samples.

Results

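The difference between Rubcn-knockout (KO) and wild-type (WT) dendritic cells in their response to 4 h with apoptotic Jurkat cells was measured for every gene. It was taken as the change from untreated to treated cells in KO minus the same change in WT, on the log2 scale, and is called the interaction here. A positive value means that the response lay higher in KO, either as a stronger rise or as a weaker fall, and a negative value means that it lay lower. The members were 12 of the 30 libraries of the series, 3 in each of 4 groups: untreated WT, untreated KO, WT with Jurkat cells for 4 h and KO with Jurkat cells for 4 h. No measured value was used to choose these libraries.

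Bone marrow of mice had been cultured with FLT3L at 200 ng/ml for 6 to 7 days, a cytokine that gives cultures of plasmacytoid and conventional dendritic cells. Jurkat is an established human T-cell leukaemia line, given here as apoptotic cells, so the treated libraries can also hold reads of the added cells. Treated groups are those with Jurkat cells for 4 h unless another treatment is named; both untreated groups had the same culture without them. The knockout allele, the strain, sex and age of the mice, and the way apoptosis was induced are details that the sources used here do not give. The labels number 3 replicates a group and do not say whether they came from separate mice or cultures, so the p-values measure the spread between these samples, which may be technical.

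Rubicon, the protein of Rubcn, is needed for LC3-associated phagocytosis, in which LC3 is attached to the membrane of a phagosome that holds engulfed material such as a dying cell. The pathway uses part of the autophagy machinery together with the phagocyte NADPH oxidase, and it helps the phagosome to mature and its cargo to be degraded. Nucleic acid of dying cells can be sensed inside dendritic cells and can induce type I interferons. These act through their receptor and the transcription factors it activates to switch on a large set of interferon-stimulated genes, and plasmacytoid dendritic cells are known for making large amounts of them.

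The 12 libraries held 41.4 to 47.0 M counts, and levels are given as CPM (counts per M counts) on library sizes scaled by the trimmed mean of M values (TMM). Siglech, a marker of plasmacytoid dendritic cells, and Xcr1 and Sirpa, of conventional types 1 and 2, were present in each of the 4 groups. Their lowest group mean was 85.9 CPM, that of Xcr1 in untreated KO. The other listed markers varied: some were low, some fell with treatment and some rose. Ly6d (plasmacytoid) rose from 203 to 629 CPM in WT and from 207 to 538 CPM in KO. Group means were 0.41 to 0.77 CPM for Esam (type 2) and 0.998 to 1.90 CPM for Mzb1 (plasmacytoid). Clec10a (type 2) went from 161 CPM untreated to 12.7 CPM treated in WT and from 169 to 16.5 CPM in KO. TMM factors were 0.836 to 0.842 in treated KO, 0.765 to 0.813 in treated WT and 1.05 to 1.06 in untreated libraries, so the scaling differed between the treated genotypes. Treated KO replicate 2 stood apart, with 3.90% of its counts on Rn45s, the 45S pre-ribosomal RNA, against 0.109% to 0.201% in the other 11 libraries. Rn45s itself had an interaction of 3.23 (FDR 0.0315), at 46552 CPM in that library against 1848 and 2407 CPM in the other 2 treated KO libraries. Fewer cells of a type and less RNA per cell cannot be told apart in these bulk samples.

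Rubcn, the targeted gene, was at 95.6, 96.6 and 105 CPM without treatment in WT and 70.4, 72.2 and 75.8 CPM in KO. With Jurkat cells it was at 58.3, 62.3 and 56.1 CPM in WT and 49.1, 44.4 and 50.5 CPM in KO. The genotypes did not overlap in either condition, KO being lower (log2 -0.44 untreated and -0.30 treated), so most Rubcn reads remained in the libraries labelled KO and the gene checks those labels only in part. Its own interaction was 0.15 ± 0.07 (SE, FDR 0.235), and it was not called.

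The interaction passed an adjusted p (false discovery rate, FDR) of 0.05 in edgeR's quasi-likelihood test for 631 of 14808 genes tested, 4.26% of them. It was positive for 254 genes (1.72%) and negative for 377 (2.55%). Most of these differences were small: the median was 0.36 for positive and -0.32 for negative genes, and 50 genes, 16 positive and 34 negative, differed by at least 2-fold. The response itself was far broader, with 11778 genes (79.5%) changed in WT, 38.9% up and 40.6% down, and 11619 (78.5%) in KO, 37.5% up and 41% down. The balance of directions depended on the scaling and on the libraries in the fit. Scaled by total counts, 661 genes were positive and 200 negative. Fitted on the 12 libraries alone, with TMM kept, 231 were positive and 106 negative. Scaling by total counts called 454 of the 631 genes with the same sign, all 254 positive and 200 negative ones.

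Smaller responses in KO made up most of the called genes. Of the 377 negative genes, 270 rose in both genotypes and rose less in KO, by a median log2 of 0.82 against 1.22 in WT. Of the 254 positive genes, 161 fell in both and fell less in KO, with medians of -1.25 in KO and -1.66 in WT. A stronger rise in KO was seen for 64 genes, at medians of 2.09 in KO and 1.495 in WT, and a stronger fall for 34 genes, at -0.81 in KO and -0.47 in WT. The responses went in opposite directions in 6 positive and 12 negative genes, and the others were called as changed in 1 genotype alone. Among all 10755 genes that changed in 1 direction in both genotypes, 66.1% had the smaller estimated change in KO, 68.2% of those that rose and 64.0% of those that fell. Scaled by total counts, these shares were 69.5%, 57.0% and 74.4%, and the median response of all genes moved from -0.02 to -0.42 in WT and from -0.03 to -0.37 in KO.

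**Figure D1:**
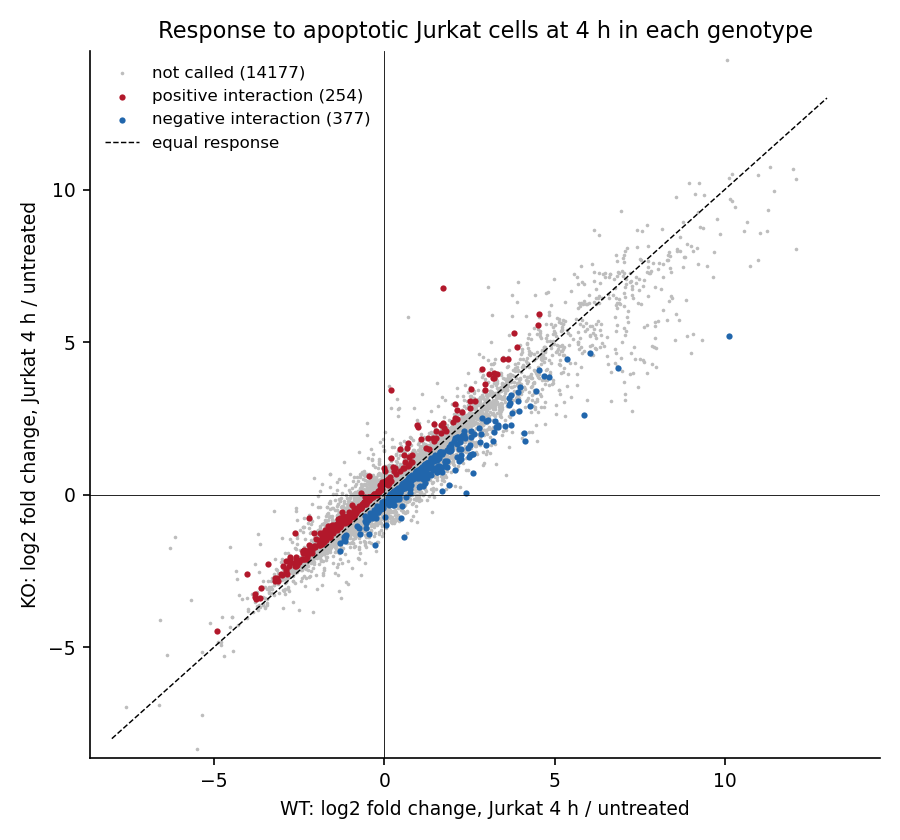
Log2 fold change between Jurkat 4 h and untreated cells in WT (x axis) and KO (y axis) for 14808 genes; red points are the 254 genes with a positive and blue points the 377 with a negative interaction, and the dashed line marks equal responses. Most blue points lie to the right of 0 and under the line, where 270 genes rose less in KO, and most red points lie to the left of 0 and above the line, where 161 genes fell less.

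For most called genes the genotypes differed after treatment rather than before it. A KO against WT difference was called with Jurkat cells but not in untreated cells for 166 (65.4%) of the positive and 273 (72.4%) of the negative genes. The reverse, a difference in untreated cells that was not called after treatment, held for 43 positive genes, all lower in untreated KO, and 60 negative genes, all higher in untreated KO. Differences called in both conditions had 1 direction for 21 positive and 9 negative genes and opposite directions for 11 and 23, and 13 and 12 genes were called in neither. Over all genes tested, KO and WT differed for 1477 (9.97%; 6% higher and 3.97% lower in KO) in untreated and 3392 (22.9%; 9.37% higher and 13.5% lower) in treated cells. The interaction is the difference of these contrasts, so they are given to show where it lies, not as further evidence for it.

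**Figure D2:**
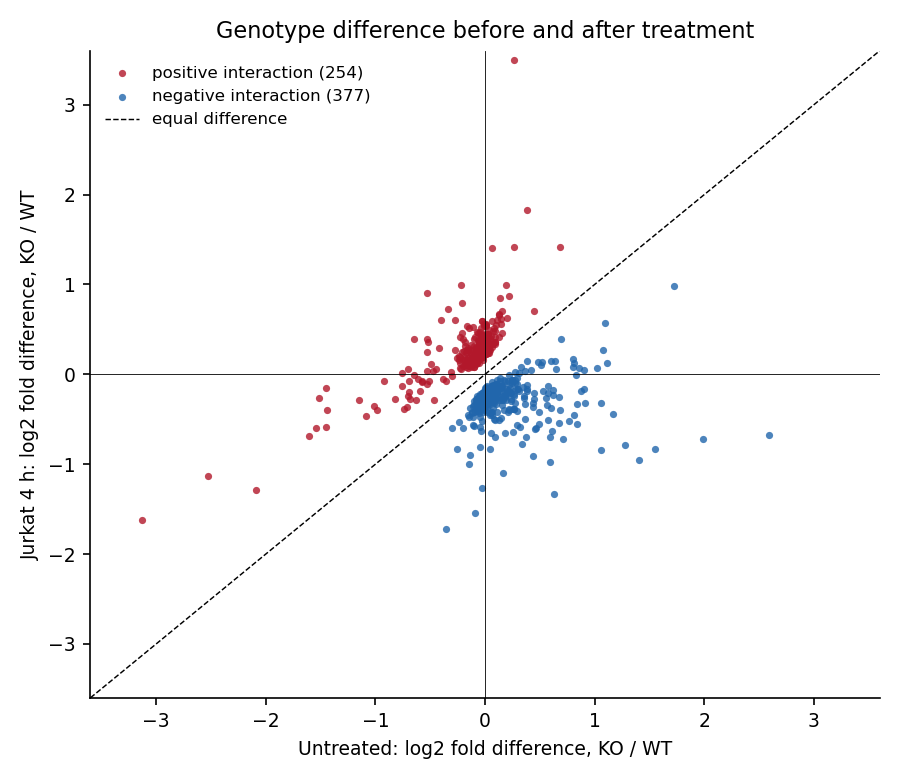
Log2 difference between KO and WT in untreated cells (x axis) and with Jurkat cells for 4 h (y axis) for the called genes; red marks a positive and blue a negative interaction, the dashed line marks an equal difference, and 2 genes lie outside the axes. The points crowd along the vertical line at 0, where the 166 positive and 273 negative genes called with Jurkat cells only lie, and a tail of red points reaches down to Ifi44 at -3.13 untreated and -1.62 treated.

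Among the genes with the smallest p for a positive interaction, several fell with treatment and fell less in KO. Il1rl1 encodes ST2, the receptor for interleukin-33. Untreated libraries held Il1rl1 at 20.8, 19.9 and 19.6 CPM (WT) and 18.7, 22.6 and 21.7 CPM (KO), and treated libraries at 3.201, 3.498 and 3.18 CPM (WT) and 8.86, 9.14 and 8.24 CPM (KO). The genotypes overlapped before treatment, and with Jurkat cells every KO library lay above every WT library. Il1rl1 fell by log2 2.61 in WT and 1.26 in KO, an interaction of 1.34 ± 0.12 (SE, FDR 7.97e-08). Itga1, the alpha-1 subunit of a collagen-binding integrin, behaved alike. Levels of Itga1 were 106, 102 and 105 CPM (untreated WT), 102, 100.5 and 102 CPM (untreated KO), 18.6, 17.2 and 16.4 CPM (treated WT) and 23.8, 24.7 and 22.5 CPM (treated KO). Its interaction was 0.48 ± 0.07 (SE, FDR 1.24e-04), and the genotypes overlapped in untreated cells only. Lbh, which encodes a small transcription cofactor, fell by log2 3.81 in WT and 3.36 in KO.

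In WT, Lbh was at 297, 292 and 305 CPM untreated and 21.5, 20.3 and 21.96 CPM treated, and in KO at 277, 283 and 293 CPM untreated and 28.3, 27.1 and 27.6 CPM treated. The treated KO libraries were all higher, and the interaction was 0.45 ± 0.05 (SE, FDR 1.59e-05). Sh2d5, an SH2-domain adaptor gene, was level between untreated genotypes at log2 0.00 and higher in treated KO by 0.45, with an interaction of 0.45 ± 0.06 (SE, FDR 1.94e-04). Strip2 and Rtl5 fell in WT and did not fall in KO. Without treatment Strip2 was at 41.8, 39.9 and 39.2 CPM (WT) and 29.6, 29.9 and 31.04 CPM (KO), and with it at 25.7, 26.7 and 23.5 CPM (WT) and 30.5, 32.3 and 30.5 CPM (KO). Strip2, which encodes a subunit of the STRIPAK kinase and phosphatase complexes, was thus lower in untreated KO and higher in treated KO, without overlap in either condition, and its interaction was 0.71 ± 0.08 (SE, FDR 5.69e-06). Rtl5, a gene derived from a retrotransposon, was at 106, 111 and 113 CPM in untreated and 98.8, 106 and 100.2 CPM in treated WT, and at 96.2, 100.4 and 98.5 and 119, 123 and 124 CPM in KO. It fell by log2 0.12 in WT and rose by 0.31 in KO, with an interaction of 0.43 ± 0.06 (SE, FDR 6.52e-05).

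The remaining leading positive genes rose more in KO. H2-M2 encodes a non-classical MHC class I molecule. Untreated libraries held H2-M2 at 7.84, 8.301 and 6.94 CPM (WT) and 6.91, 6.26 and 5.87 CPM (KO), and treated libraries at 32.3, 33.8 and 31.8 CPM (WT) and 51.8, 46.2 and 51.1 CPM (KO). Both conditions separated the genotypes, KO being the lower before treatment and the higher after it, and the interaction was 0.88 ± 0.12 (SE, FDR 1.52e-04). The untreated difference of -0.28 was not called. H2-Q5, another MHC class I gene of the Q region, stayed lower in KO in both conditions (log2 -1.15 untreated and -0.29 treated), and its interaction was 0.86 ± 0.10 (SE, FDR 1.59e-05). Genes of that region are near-identical copies of each other, so the split of reads among them is uncertain. Cacnb3, a calcium-channel subunit gene that rises in maturing dendritic cells, was at 84.7, 86.9 and 92.2 CPM without treatment in WT and 58.9, 61.5 and 61.97 CPM in KO. Treatment brought both genotypes to between 206 and 223 CPM with overlap, and the interaction was 0.57 ± 0.08 (SE, FDR 1.52e-04). For Cacnb3 the difference thus lay in untreated cells.

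Among the genes with the smallest p for a negative interaction, Mid1, which encodes a microtubule-bound ubiquitin ligase, led the list. Levels of Mid1 were 3.09, 3.06 and 3.53 CPM (untreated WT), 9.995, 10.7 and 11.4 CPM (untreated KO), 11.5, 12.2 and 11.4 CPM (treated WT) and 24.5, 21.1 and 23.9 CPM (treated KO). KO was higher without overlap in both conditions, and the gap narrowed from log2 1.72 to 0.98, an interaction of -0.74 ± 0.10 (SE, FDR 1.24e-04). Mid1 lies at the edge of the pseudoautosomal region of the X chromosome in mice, and the sex of the animals is not given. Rag1, a subunit of the recombinase that joins antigen receptor genes, rose in WT and fell in KO. In WT, Rag1 was at 11.8, 12.4 and 11.98 CPM untreated and 15.6, 13.9 and 14.3 CPM treated, and in KO at 21.4, 20.5 and 21.1 CPM untreated and 15.6, 17.5 and 16.4 CPM treated. The KO libraries were higher in untreated cells, the difference after treatment was not called, and the interaction was -0.63 ± 0.09 (SE, FDR 2.16e-04). Both Rag1 and Rag2 are also on the list of T-lineage markers described further on.

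Other leading negative genes were called lower in treated KO, and in untreated KO they were either called higher or not called. Plaur encodes the urokinase receptor, a surface protein of activated myeloid cells. Without treatment Plaur was at 28.9, 27.1 and 25.96 CPM (WT) and 33.03, 29.995 and 27.7 CPM (KO), and with it at 157, 189.5 and 158 CPM (WT) and 127, 111 and 123 CPM (KO). The rise was smaller in all treated KO libraries, and the interaction was -0.63 ± 0.10 (SE, FDR 3.26e-04). Rin2, a gene of a Rab5 guanine nucleotide exchange factor, went from log2 0.22 untreated to -0.39 treated between KO and WT, both called, an interaction of -0.61 ± 0.09 (SE, FDR 2.48e-04). Zfp599, a zinc finger gene, went from 0.37 to -0.49, both called, an interaction of -0.86 ± 0.14 (SE, FDR 7.41e-04). Mtus1 and Tfdp2 instead fell more in KO. Untreated libraries held Mtus1 at 8.48, 8.99 and 9.45 CPM (WT) and 8.04, 8.15 and 8.07 CPM (KO), and treated libraries at 6.14, 7.65 and 5.98 CPM (WT) and 3.83, 3.18 and 2.87 CPM (KO). The KO libraries of Mtus1, which encodes a microtubule-associated protein, were the lower in both conditions, but only the treated difference was called, and the interaction was -0.85 ± 0.13 (SE, FDR 2.48e-04). For Tfdp2, which encodes a dimerisation partner of E2F factors, the interaction was -0.60 ± 0.09 (SE, FDR 4.51e-04).

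Hdc and Ccl7 were higher in untreated KO and overlapped between the treated genotypes. Hdc, the enzyme that makes histamine, is also highly expressed in basophils and mast cells. Levels of Hdc were 1.31, 1.47 and 2.04 CPM (untreated WT), 2.81, 3.98 and 3.31 CPM (untreated KO), 26.3, 36.5 and 32.02 CPM (treated WT) and 25.1, 23.7 and 27.2 CPM (treated KO). Untreated KO was higher by log2 1.06, treated libraries of the 2 genotypes overlapped, and the interaction was -1.38 ± 0.23 (SE, FDR 7.47e-04). Summed markers of basophils and mast cells, 7 of the 12 listed being tested, were at 57.4 to 89.5 CPM in untreated KO against 22.3 to 28.6 CPM in untreated WT. After treatment the sums were 80.9 to 113 CPM in KO and 25.3 to 37.9 CPM in WT. The markers Mcpt4, Tpsb2 and Cma1 were at or near 0 in all 4 groups. The part of these cells in the Hdc result was not tested. Ccl7, a chemokine for monocytes, was at 2.03, 2.22 and 1.82 CPM without treatment in WT and 4.24, 3.61 and 3.49 CPM in KO, with an interaction of -1.07 ± 0.18 (SE, FDR 7.47e-04) and overlapping treated libraries.

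**Figure D3:**
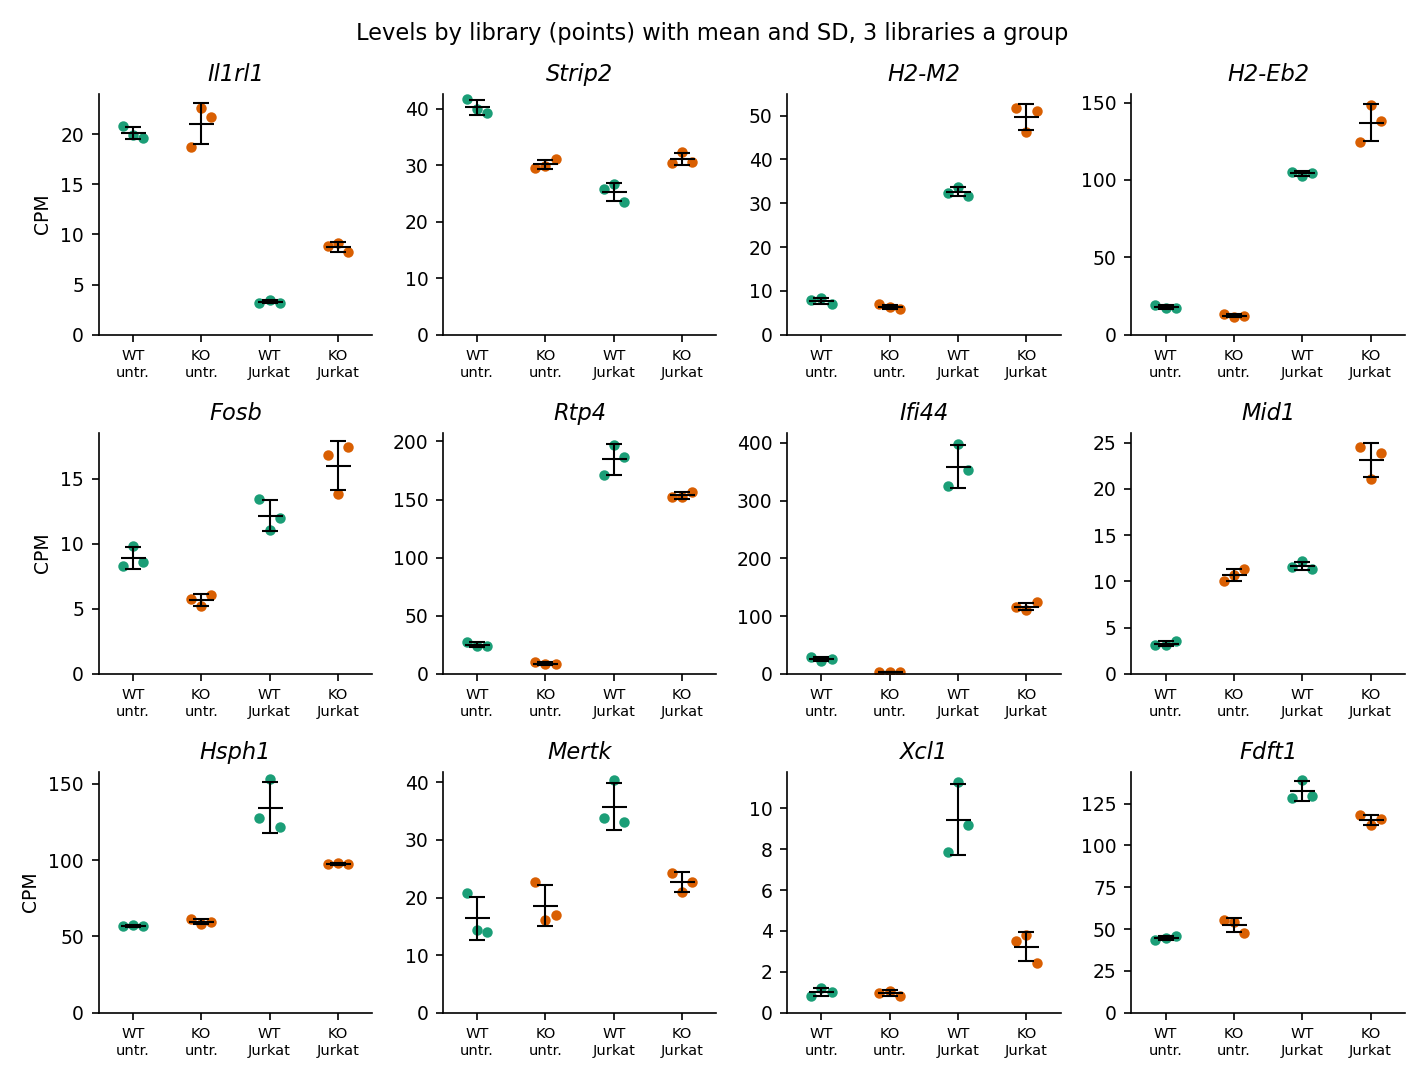
CPM in each of the 12 libraries (points) for 12 genes with an interaction, with the mean and SD of each group of 3 as bars; green is WT and orange KO, and each y axis starts at 0. Il1rl1, Strip2, H2-M2, H2-Eb2, Fosb, Rtp4 and Ifi44 had a positive and Mid1, Hsph1, Mertk, Xcl1 and Fdft1 a negative interaction; treated KO and WT libraries do not overlap in any of the 12 panels.

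The tested interferon genes themselves were lower in treated KO, but no interaction could be measured for them. Type I and type III interferon genes encode the secreted interferons alpha, beta and lambda, and 13 of the 20 listed passed the filter on low counts. Ifnb1, which encodes interferon beta, had 0 counts in all 6 untreated libraries. With Jurkat cells it was at 9.68, 15.8 and 12.1 CPM in WT and 4.17, 3.34 and 3.52 CPM in KO, without overlap. KO was lower, the log2 difference being -1.77 ± 0.22 (SE, FDR 3.86e-06). Against a floor of 3 counts over the untreated group, Ifnb1 rose at least 580-fold in WT and at least 179-fold in KO.

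All 13 tested interferon genes were lower in treated KO at an FDR under 0.05, where 13.5% of all genes tested were. The filter on low counts partly set this count, since a gene near 0 elsewhere could pass it on treated WT alone. Ifna12, for example, had 6 counts in treated KO and 69 in treated WT. Ifnl3, at 16 and 26 counts with overlapping genotypes, did not pass. DESeq2 called 5 of the 13, did not call 2 and gave no adjusted p for 6. Their summed level was 35.4, 62.04 and 41.4 CPM in treated WT and 14.99, 12.1 and 12.8 CPM in treated KO. Every WT library was above every KO library. In untreated cells 12 of the 13 genes had no count in WT and all 13 had none in KO, the exception being a single count of Ifna2. The fitted interactions therefore depend on the prior count and are no measurement, and 0 of the 13 were called in edgeR or DESeq2, 0 having an unadjusted p under 0.05. The genes of interferon alpha are near-identical copies, so counts of single members are uncertain. Ifna2, at 4.67, 7.51 and 5.53 CPM in treated WT and 1.82, 1.43 and 1.93 CPM in treated KO, and Ifna5, at 5.09, 9.66 and 6.37 and 2.17, 1.59 and 1.72 CPM, had the highest levels among the alpha genes.

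Markers of plasmacytoid dendritic cells were also lower in KO. The 20 listed markers summed to 3897 to 4697 CPM in treated WT and 3189 to 3587 CPM in treated KO, and to 3405 to 3504 CPM in untreated WT and 2976 to 3196 CPM in untreated KO. Of these markers, 12 were lower and 3 higher in treated KO, against 13.5% and 9.37% of all genes. In untreated KO 9 were lower and 4 higher, against 3.97% and 6% of all genes. In edgeR 0 had an interaction, 8 having an unadjusted p under 0.05, and DESeq2 gave 2 negative calls. None of the 20 was at 0 in any group. The markers had a treated mean of 3436 CPM in KO against 4201 CPM in WT, where the interferon genes had 13.3 against 46.3 CPM. The part of these cells in the interferon result was not tested.

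**Figure D4:**
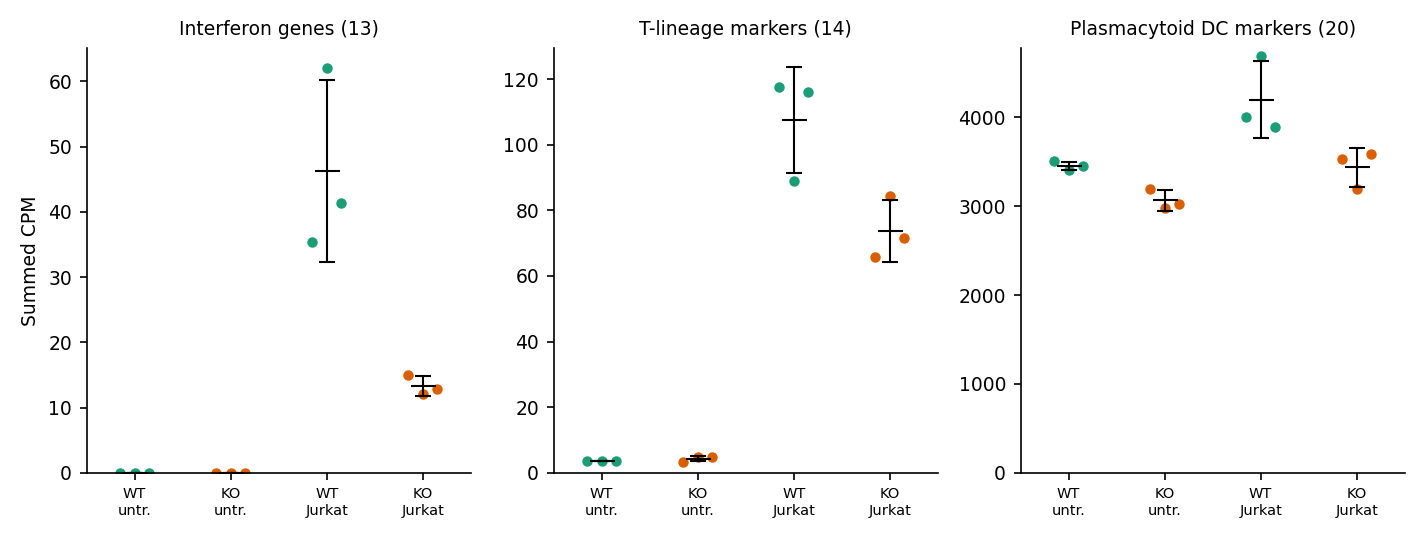
Summed CPM by library (points; bars show mean and SD of 3) of the 13 tested interferon genes, of 14 T-lineage markers under 1 CPM in untreated groups, and of 20 plasmacytoid dendritic cell (DC) markers; green is WT, orange is KO, and axes start at 0. With Jurkat cells all 3 sums were lower in every KO library than in every WT library, at 12.1 to 14.99 against 35.4 to 62.04 CPM for the interferon genes.

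Among interferon-stimulated genes, all calls of an interaction were positive. All 56 tested of 57 listed rose in both genotypes, at a median log2 of 3.80 in WT and 4.31 in KO. Of all genes 38.9% rose in WT and 37.5% in KO. The interaction was positive for 12 and negative for 0, against 1.72% positive among all genes, and its median was 0.39 against -0.01 over all genes tested. The genotypes differed more in untreated cells, where 50 of the 56 were lower in KO against 3.97% of all genes, at a median of -0.79. With Jurkat cells 40 were lower against 13.5% of all genes, at a median of -0.45. None was higher in KO in either condition. The called genes included Rtp4, Ifi44, Oas3, Lgals3bp, Irf9, Oas2, Oas1g, Xaf1, Dhx58, Oas1b and Oasl2. Under the 3 other scalings the count was 12 to 16; it was 26 with the 12 libraries alone, and 6 or 7 without any 1 of 7 libraries (treated KO or WT replicate 1 or 3, untreated KO replicate 1 or 3, untreated WT replicate 3).

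Rtp4, an interferon-induced transport protein gene, had the smallest p of the group. In WT, Rtp4 was at 27.6, 23.8 and 24.1 CPM untreated and 171, 197 and 187 CPM treated, and in KO at 9.89, 8.48 and 8.05 CPM untreated and 152, 152 and 157 CPM treated. KO libraries were lower in both conditions without overlap, and the log2 difference narrowed from -1.52 untreated to -0.27 treated. Rtp4 rose by log2 2.88 in WT and 4.12 in KO, an interaction of 1.25 ± 0.19 (SE, FDR 2.48e-04), and the treated difference was not called. Ifi44 encodes an interferon-induced cytoplasmic protein. Without treatment Ifi44 was at 29.7, 21.7 and 25.8 CPM (WT) and 3.003, 2.67 and 3.11 CPM (KO), and with it at 325, 398 and 354 CPM (WT) and 115, 110.4 and 124 CPM (KO). KO stayed well under WT throughout, and the gap narrowed from -3.13 to -1.62, an interaction of 1.51 ± 0.29 (SE, FDR 0.00308). Oas3, a sensor of double-stranded RNA that makes 2-5A, the activator of RNase L, was at 61.6, 53.9 and 65.6 CPM without treatment in WT and 22.8, 21.2 and 18.3 CPM in KO. With treatment it reached 614, 758 and 661 CPM in WT and 462, 434 and 448 CPM in KO, and its interaction was 0.94 ± 0.21 (SE, FDR 0.00892).

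Promoters of such genes often hold the interferon-stimulated response element (ISRE), through which interferon signalling acts on them. RefSeq promoter windows on the GRCm38.p6 build were at hand for 42 of the 56 tested genes of the list, and for 7 of its 12 called genes, too few to compare shares. The core of the element (GAAA, any 2 bases, then GAAA again), searched on both strands, was found in 978 (2.98%) of 32851 windows of the 250 bases before a start site. Counted by gene, it was found for 394 (3.47%) of 11355 tested genes with a window, and for 23 of the 42 listed. Of the 7 called genes 2 held it, Oas3 and Oas1g, while the other 5 did not. The windows of Oas3 and Oas1g are shown as the called genes that hold the element; capitals mark the core, and overlapping matches are joined. In Oas3 the match began 75 bases before the start site, and in Oas1g 2 overlapping matches began 18 and 12 bases before it. The matches describe these letters and are not measured binding sites. The windows are chr5:120777660-120777909 and chr5:120887614-120887863, both read from the minus strand, and are written 5′ to 3′.
Oas3: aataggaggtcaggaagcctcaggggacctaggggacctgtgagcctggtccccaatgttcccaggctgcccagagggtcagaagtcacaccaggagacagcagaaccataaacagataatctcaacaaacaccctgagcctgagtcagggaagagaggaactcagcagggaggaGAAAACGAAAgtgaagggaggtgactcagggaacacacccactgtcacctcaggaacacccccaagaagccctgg
Oas1g: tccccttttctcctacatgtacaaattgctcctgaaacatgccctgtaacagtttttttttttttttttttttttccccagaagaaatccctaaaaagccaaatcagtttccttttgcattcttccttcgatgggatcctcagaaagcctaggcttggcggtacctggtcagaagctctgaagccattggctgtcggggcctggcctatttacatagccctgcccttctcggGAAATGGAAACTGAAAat

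Genes upstream in the same pathway gave few calls, without a stable direction. Of 34 genes for nucleic acid sensing and interferon signalling, 0 had a positive and 2 a negative interaction, where 4.26% of all genes were called. DESeq2 gave 2 positive and 2 negative calls, and scaling by total counts 2 positive and 1 negative. In treated KO 17 were lower and 0 higher, against 13.5% and 9.37% of all genes. Ifnar2, a chain of the type I interferon receptor, was at 356, 366 and 363 CPM in untreated and 292, 309 and 282 CPM in treated WT, and at 343, 344 and 349 and 247, 232 and 249.9 CPM in KO. It fell in both genotypes and fell further in KO, with an interaction of -0.21 ± 0.05 (SE, FDR 0.0155). The call was lost in 5 of 21 alternatives, among them scaling by total counts (FDR 0.0591) and the 12 libraries alone. Socs3, a feedback inhibitor of cytokine signalling, rose from a higher untreated level in KO, with an interaction of -0.46 ± 0.12 (SE, FDR 0.0262). Its call was lost without any 1 of 5 libraries. Both called genes were also higher in WT after 30 min with Jurkat cells than with ovalbumin protein, as were 5 of the 34 and 11.9% of all genes.

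Among 28 tested cytokine genes 1 interaction was positive and 1 negative, and among 28 tested chemokine genes 0 were positive and 2 negative, where 4.26% of all genes were called. Xcl1 encodes a chemokine for cells with the receptor XCR1. Untreated libraries held Xcl1 at 0.824, 1.21 and 1.02 CPM (WT) and 0.987, 1.08 and 0.801 CPM (KO), and treated libraries at 7.84, 11.3 and 9.19 CPM (WT) and 3.51, 3.79 and 2.43 CPM (KO). Untreated libraries overlapped, treated KO was lower (log2 -1.54), and the interaction was -1.45 ± 0.30 (SE, FDR 0.00484). The other chemokine was Ccl7, given above. Il1rn, the interleukin-1 receptor antagonist, rose by 3.70 in WT and 3.003 in KO, an interaction of -0.69 ± 0.16 (SE, FDR 0.0127). Il16, a T-cell chemoattractant cytokine, fell by 3.77 in WT and 3.41 in KO, an interaction of 0.36 ± 0.09 (SE, FDR 0.0206). Both calls were lost without 1 of the libraries, Il1rn's without untreated KO replicate 1 and that of Il16 without treated WT replicate 2 or treated KO replicate 1.

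Maturation genes of dendritic cells, such as co-stimulatory molecules, rose for 28 of 30 in each genotype. Of all genes 38.9% rose in WT and 37.5% in KO. In untreated KO 11 of the 30 were lower and 0 higher, and in treated KO 10 were lower and 0 higher. Over all genes 3.97% were lower in untreated and 13.5% in treated KO. Cacnb3 was the 1 with an interaction, where 4.26% of all genes were called. Among 18 genes of NF-kB subunits and inhibitors 0 had an interaction in edgeR or DESeq2, 3 had an unadjusted p under 0.05, and scaling by total counts gave 2 positive calls.

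Of the antigen presentation genes, 1 of 18 in the class II and 2 of 33 in the class I list had an interaction, all positive, where 4.26% of all genes were called; DESeq2 gave 2 positive and 1 negative call in each list. H2-Eb2, a beta chain of MHC class II, was the called gene of the class II pathway. Levels of H2-Eb2 were 19.2, 17.2 and 17.5 CPM (untreated WT), 13.4, 11.5 and 12.4 CPM (untreated KO), 105, 102 and 105 CPM (treated WT) and 125, 148 and 138 CPM (treated KO). KO was the lower in untreated cells and the higher in treated cells, without overlap, and the interaction was 0.93 ± 0.14 (SE, FDR 3.13e-04). In MHC class I presentation and cross-presentation, 2 of 33 tested genes were positive. In treated KO 20 of the 33 were lower and 1 higher, against 13.5% and 9.37% of all genes. H2-Q4 rose by 1.66 in WT and 2.01 in KO, with an interaction of 0.35 ± 0.07 (SE, FDR 0.00482). H2-K1, a classical class I heavy chain, had an interaction of 0.18 ± 0.05 (SE, FDR 0.0466) that was lost in 15 of 21 alternatives. Read splitting among class I copies is uncertain for both.

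Markers of conventional dendritic cells type 1, which cross-present antigen of dead cells, included 2 positive and 1 negative interaction among 12. Of all genes 1.72% were positive and 2.55% negative. Gcsam, a signalling adaptor gene, fell with treatment in both genotypes. In WT, Gcsam was at 33.8, 34.6 and 32.9 CPM untreated and 5.77, 4.37 and 4.78 CPM treated, and in KO at 36.03, 37.02 and 38.5 CPM untreated and 9.5, 8.61 and 8.97 CPM treated. Treated KO libraries kept more of it than treated WT libraries without overlap, and the interaction was 0.71 ± 0.11 (SE, FDR 2.48e-04). Snx22, a sorting nexin gene, had an interaction of 0.32 ± 0.08 (SE, FDR 0.0189), with treated libraries that overlapped. Itgae encodes CD103, the alpha-E integrin chain of these cells. Without treatment Itgae was at 23.1, 23.8 and 23.5 CPM (WT) and 50.8, 48.3 and 51.4 CPM (KO), and with it at 9.89, 9.78 and 8.56 CPM (WT) and 14.9, 11.6 and 15.5 CPM (KO). It was higher in KO in both conditions, the gap narrowed, and the interaction was -0.53 ± 0.14 (SE, FDR 0.0311), a call lost without any 1 of 8 libraries. The 12 marker genes summed to 2298 to 2636 CPM in treated KO and 2335 to 2499.6 CPM in treated WT.

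Immediate early genes, transcription factors and others that respond within minutes to a signal, had 5 positive and 2 negative interactions among 28. Among all genes 1.72% were positive and 2.55% negative. Fosb, a partner of Jun in AP-1, went against its untreated order. Untreated libraries held Fosb at 8.28, 9.85 and 8.61 CPM (WT) and 5.73, 5.203 and 6.07 CPM (KO), and treated libraries at 13.4, 11.1 and 11.96 CPM (WT) and 16.8, 13.8 and 17.4 CPM (KO). Lower in untreated KO and higher in treated KO without overlap, it had an interaction of 1.05 ± 0.15 (SE, FDR 2.48e-04). Egr1, a zinc finger transcription factor, did the same. Levels of Egr1 were 44.2, 53.1 and 50.1 CPM (untreated WT), 37.97, 31.3 and 33.5 CPM (untreated KO), 51.2, 47.7 and 46.8 CPM (treated WT) and 60.8, 57.1 and 68.9 CPM (treated KO). Its change in WT was not called, it rose in KO by 0.86, and it had an interaction of 0.88 ± 0.13 (SE, FDR 2.71e-04). Ier2, Nr4a1 and Nr4a2 were the other positive genes. Myc, which drives growth and cell division, rose by 0.20 in WT and fell by 0.23 in KO, with an interaction of -0.43 ± 0.08 (SE, FDR 0.00171). Atf3, a stress-induced factor, was the other negative gene.

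All 7 called immediate early genes were also higher in WT after 30 min with Jurkat cells than after 30 min with ovalbumin protein (OVA), as were 20 of the 28 on the list and 11.9% of all genes. The counts of 5 and 2 held in the fit of the 12 libraries alone and without treated KO replicate 2, and were 6 and 2 under total counts.

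Called genes of protein folding and stress had mostly negative interactions. Heat shock proteins and co-chaperones, which refold proteins, had 7 negative and 0 positive among 22, at a median of -0.23. Over all genes 2.55% were negative and 1.72% positive. The 7 were Hsph1, Hsp90ab1, Dnajb1, Ahsa1, Hspd1, Hspa4l and Hsp90aa1. In WT, Hsph1 was at 56.5, 57.4 and 56.8 CPM untreated and 128, 153 and 122 CPM treated, and in KO at 61.2, 57.96 and 59.6 CPM untreated and 97.3, 98.3 and 97.3 CPM treated. Hsph1, a co-chaperone of HSP70, rose by 1.24 in WT and 0.71 in KO, all treated KO libraries being lower, with an interaction of -0.53 ± 0.08 (SE, FDR 2.48e-04). Hsp90ab1, a constitutive HSP90 chaperone, rose by 0.78 and 0.48, an interaction of -0.31 ± 0.06 (SE, FDR 0.00233). Dnajb1, an HSP40 co-chaperone, rose by 0.94 and 0.64, an interaction of -0.30 ± 0.06 (SE, FDR 0.00413). The list gave 5 calls under total counts and 6 without treated KO replicate 2, but 1 call, Hsph1, with the 12 libraries alone.

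The unfolded protein and integrated stress response list had 1 positive and 5 negative genes among 31, against 1.72% and 2.55% of all genes. Ddit4, an inhibitor of mTORC1, fell by 0.87 in WT and 0.45 in KO, an interaction of 0.42 ± 0.09 (SE, FDR 0.00886). Edem1, which directs misfolded glycoproteins to degradation, rose by 1.06 and 0.83, an interaction of -0.23 ± 0.06 (SE, FDR 0.0175). Asns, asparagine synthetase, had an interaction of -0.38 ± 0.09 (SE, FDR 0.0203). Hspa5, Ddit3 and Phgdh were the others. The negative calls were 1 under total counts and 0 with the 12 libraries alone. They were 1 to 3 without any 1 of 7 libraries (treated KO replicate 2 or 3, untreated KO replicate 1 or 2, treated WT replicate 2, untreated WT replicate 1 or 2).

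Sterol synthesis and efflux genes had 10 negative and 0 positive interactions among 31, against 2.55% and 1.72% of all genes, at a median of -0.23. The called genes included Fdft1, Sqle, Mvd, Cyp51, Dhcr7, Fdps, Msmo1 and Acat2, which are enzymes of cholesterol synthesis. In untreated cells 23 of the 31 were higher in KO and 0 lower, where 6% of all genes were higher. With Jurkat cells 4 were higher and 1 lower, against 9.37% and 13.5% of all genes. Fdft1 encodes squalene synthase. Without treatment Fdft1 was at 43.6, 44.8 and 46.2 CPM (WT) and 55.5, 54.2 and 47.7 CPM (KO), and with it at 128, 139 and 129.8 CPM (WT) and 118, 112 and 116 CPM (KO). It was higher in untreated KO and lower in treated KO without overlap, with an interaction of -0.43 ± 0.07 (SE, FDR 0.00129). Sqle, squalene epoxidase, was higher by 0.27 in untreated KO and at -0.06 against treated WT, which was not called, an interaction of -0.34 ± 0.07 (SE, FDR 0.00757). Mvd, mevalonate diphosphate decarboxylase, likewise went from 0.31 to 0.01, an interaction of -0.29 ± 0.07 (SE, FDR 0.0122). The list held 7 calls under total counts and 3 with the 12 libraries alone. It held 3 without treated KO replicate 2 or treated WT replicate 2, 4 without untreated KO replicate 1 and 6 without untreated WT replicate 1.

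Genes of the oxidative stress response under NRF2 had 4 negative interactions among 22, Fth1, Prdx1, Pgd and Txn1. Those of glycolysis and the hypoxia response had 3 among 31, P4ha1, Hk1 and Pgk1. Of all genes 2.55% were negative. Fth1, ferritin heavy chain, rose by 1.41 in WT and 1.13 in KO, an interaction of -0.28 ± 0.07 (SE, FDR 0.0143). Prdx1, a peroxidase, had an interaction of -0.48 ± 0.13 (SE, FDR 0.0279), and Pgd, of the pentose phosphate pathway, -0.22 ± 0.06 (SE, FDR 0.032). P4ha1, a prolyl hydroxylase subunit, rose by 1.66 and 1.34, an interaction of -0.32 ± 0.07 (SE, FDR 0.00653). Hk1 (hexokinase) had an interaction of -0.24 ± 0.06 (SE, FDR 0.024) and Pgk1 (phosphoglycerate kinase) one of -0.19 ± 0.05 (SE, FDR 0.0397). Under total counts each list had 1 negative call, glycolysis also had 1 positive call, and its median went from -0.05 to 0.01. With the 12 libraries alone the NRF2 list had 1 call and glycolysis 0. Pgd and Pgk1 each lost the call in 13 of 21 alternatives, Hk1 in 8, Prdx1 in 6 and Fth1 in 5. The NRF2 list had 0 calls without untreated KO replicate 1, 1 without treated KO replicate 2 or 3, treated WT replicate 2 or untreated WT replicate 3, and 2 without untreated KO replicate 2, treated WT replicate 3 or untreated WT replicate 1 or 2. That of glycolysis had 1 negative call without untreated KO replicate 2 or untreated WT replicate 1, and 5 without treated WT replicate 1.

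**Figure D5:**
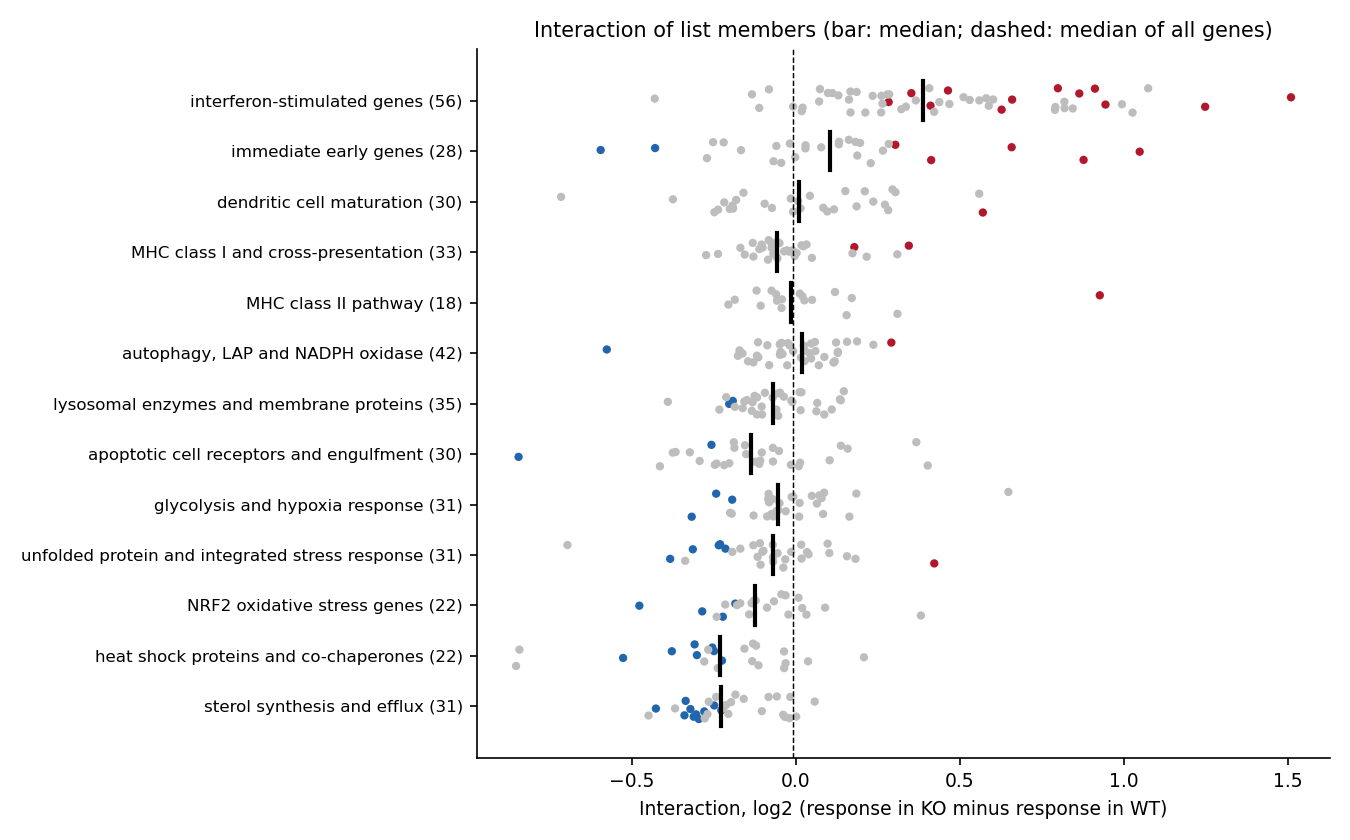
Interaction (x axis, log2) of each tested member of 13 gene lists (rows, number tested in brackets); red marks a positive and blue a negative call, black bars are list medians and the dashed line is the median of all genes tested. The median of the interferon-stimulated genes lies at 0.39, and those of the heat shock and sterol lists at -0.23.

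Genes that handle engulfed cells were covered by 3 lists with 2 calls each, where 4.26% of all genes were called. Among 42 genes of autophagy, LC3-associated phagocytosis and the NADPH oxidase, the pathway in which Rubicon acts, 1 was positive and 1 negative. Atg16l2, a homologue of the ATG16L1 protein that directs LC3 to membranes, fell by 1.20 in WT and 0.91 in KO, with an interaction of 0.29 ± 0.07 (SE, FDR 0.0198). Optn, a selective autophagy receptor, had an interaction of -0.58 ± 0.17 (SE, FDR 0.0475) that was lost in 12 of 21 alternatives. Of 35 lysosomal genes 2 were negative, Scarb2 at -0.20 ± 0.06 (SE, FDR 0.0358) and Npc2 at -0.19 ± 0.05 (SE, FDR 0.0391). The call was lost in 12 of 21 alternatives for Scarb2 and in 14 for Npc2, total counts being among them for both. Scarb2 encodes a lysosomal membrane protein and Npc2 a carrier that moves cholesterol out of lysosomes.

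Of 30 genes for apoptotic cell receptors, bridging molecules and engulfment, 0 were positive and 2 negative. Mertk is a receptor kinase that recognises dying cells through bridging proteins. Untreated libraries held Mertk at 20.7, 14.3 and 14.1 CPM (WT) and 22.7, 16.1 and 17.03 CPM (KO), and treated libraries at 33.8, 40.5 and 33.04 CPM (WT) and 24.3, 20.9 and 22.7 CPM (KO). The untreated groups overlapped, treatment raised Mertk in WT by 1.13, and the treated KO libraries were all lower. The interaction was -0.84 ± 0.18 (SE, FDR 0.00662), and it was kept in all 21 alternatives. Havcr2, which encodes the phosphatidylserine receptor TIM-3, was higher by 0.18 in untreated KO and fell more in KO, with an interaction of -0.26 ± 0.06 (SE, FDR 0.0115); the call was lost with the 12 libraries alone.

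Cell cycle and DNA replication genes had 2 positive and 3 negative interactions among 28, against 1.72% and 2.55% of all genes. Ccnb1, the mitotic cyclin B1, had an interaction of 0.28 ± 0.07 (SE, FDR 0.0146). Mcm6, a subunit of the replicative helicase, had one of -0.20 ± 0.05 (SE, FDR 0.0155), and Tyms, thymidylate synthase, one of -0.31 ± 0.08 (SE, FDR 0.0203); the other 2 were Ccnb2 (positive) and Mcm4 (negative). Scaling by total counts left 0 negative calls in that list. Zinc finger genes named Zfp gave 3 positive and 1 negative call among 322, where 4.26% of all genes were called: Zfp598 at 0.31 ± 0.06 (SE, FDR 0.00482), Zfp467 at 0.33 ± 0.09 (SE, FDR 0.0301), Zfp783 and Zfp599. With TMM scaling and all libraries, no interaction was called in edgeR among 75 cytoplasmic ribosomal protein genes, 78 oxidative phosphorylation subunits or 83 short noncoding RNAs. Of these, 13, 10 and 11 had an unadjusted p under 0.05, and DESeq2 called 2, 3 and 1. The same held for markers of conventional dendritic cells type 2 (11 genes, 2 at an unadjusted p under 0.05), all conventional dendritic cells (6 genes, 2), monocytes and macrophages (17 genes, 1), basophils and mast cells (7 genes, 0) and stromal cells (15 genes, 0). DESeq2 called 1 gene among these 5 lists, a marker of all conventional dendritic cells. Other edgeR fits did make calls: under total counts 2 markers of all conventional dendritic cells, 1 of type 2 and 1 short noncoding RNA, and with at least 5 CPM in 3 libraries 3 oxidative phosphorylation genes and 1 marker of all conventional dendritic cells. DESeq2 size factors within edgeR gave 1 oxidative phosphorylation call, as did TMM factors from genes not higher with Jurkat cells at 30 min. Leaving out 1 library gave at most 1 call in any of these lists, and none for ribosomal protein, basophil and mast cell or stromal genes. Stromal markers were nevertheless higher in KO, 13 of 15 in untreated and 12 of 15 in treated cells. Of all genes 6% and 9.37% were.

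Of 29 tested T-lineage markers, listed because the added cells are of that lineage, 8 were lower and 0 higher in treated KO. In untreated KO 5 were higher and 0 lower. Over all genes 13.5% were lower and 9.37% higher in treated KO, and 6% higher and 3.97% lower in untreated KO. The list had 0 positive and 3 negative interactions (Rag1, Lck and Rag2), against 1.72% and 2.55% of all genes, at a median of -0.59. With the 12 libraries alone 1 call was left, Rag1, whose treated difference of 0.17 was not called. Lck is a kinase of the T-cell receptor. Levels of Lck were 2.404, 2.98 and 3.14 CPM (untreated WT), 2.69, 3.96 and 3.77 CPM (untreated KO), 45.8, 35.8 and 48.6 CPM (treated WT) and 25.8, 34.2 and 28.4 CPM (treated KO). The treated libraries were higher in WT without overlap, and the interaction was -0.85 ± 0.19 (SE, FDR 0.012). The call was lost with the 12 libraries alone, with or without a replicate block shared by the genotypes, and without untreated KO replicate 2. For Rag2, the partner of Rag1, the interaction was -0.78 ± 0.23 (SE, FDR 0.0456), lost in 14 of 20 alternatives. The 14 T-lineage markers under 1 CPM in untreated cells summed to 3.34 to 4.79 CPM in untreated KO and 3.49 to 3.65 CPM in untreated WT. With Jurkat cells they summed to 65.7, 84.2 and 71.4 CPM in KO and 117, 89.01 and 116 CPM in WT, so that all KO libraries were lower. The ratio of KO to WT was 0.686 (two-sided exact permutation test, p = 0.1, the smallest that 3 against 3 allows).

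Genes that in WT were higher after 30 min with Jurkat cells than after 30 min with OVA, a comparison that used none of the 12 libraries, made up 22.5% of the negative and 8.27% of the positive genes, against 11.9% of all genes tested. Leaving out the genes higher at 30 min in either genotype (11.9% of all genes in WT, 5.3% in KO), an alternative chosen after seeing the data, left 498 of the 631, 224 positive and 274 negative. How much of a negative interaction came from fewer reads of the added cells was not tested beyond this.

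The interaction was compared with the other treatments, given side by side because they share the untreated libraries. After 4 h with OVA, a soluble protein, 6 genes (0.0405%) had a genotype difference in the response, and 1098 had an unadjusted p under 0.05. After 30 min with Jurkat cells 1 gene (0.00675%) did, and the count at an unadjusted p under 0.05 was again 1098. The difference between the genotype effects at Jurkat 4 h and OVA 4 h, which does not use the untreated libraries, was called for 375 genes (2.53%), 194 positive (1.31%) and 181 negative (1.22%). Against Jurkat 30 min it was called for 1307 (8.83%), 441 positive (2.98%) and 866 negative (5.85%).

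Several of the leading genes passed these direct tests. Il1rl1 had an interaction of 0.38 (FDR 0.199) with OVA at 4 h, and the genotype effect with Jurkat cells at 4 h exceeded that with OVA by 0.97 ± 0.12, FDR 2.80e-05. Fosb went the other way with OVA, at -0.64 (FDR 0.327), and the difference was 1.69 ± 0.17, FDR 3.12e-06. Mid1 had 0.12 (FDR 0.828) with OVA and a difference of -0.86 ± 0.10, FDR 9.04e-06, and Xcl1 had -0.09 (FDR 0.987) and -1.35 ± 0.29, FDR 0.00984. Rtp4 had an interaction of 0.39 (FDR 0.675) with OVA and differed by 0.86 ± 0.17, FDR 0.00525. For Mertk (-0.53 ± 0.18, FDR 0.118), Fdft1 (-0.20 ± 0.07, FDR 0.155), Hdc (-0.68 ± 0.21, FDR 0.0785) and Ccl7 (-0.47 ± 0.16, FDR 0.115) the difference between Jurkat cells and OVA was not called.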

How the data were processed

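RNA of 30 libraries from FLT3L bone-marrow dendritic cells was sequenced (TruSeq RNA Library Prep Kit v2, per the labels' protocols). The deposited values are whole-number read counts per gene; STAR 2.5, Subread with featureCounts 1.5.0-p1, DESeq2 and the mm10 build are named per the submitters' processing notes. The annotation, strand setting and treatment of human or multi-mapping reads are not stated in the sources used here, so human reads of Jurkat cells can align to mouse genes, and reads of near-identical copies can be lost or split. The 12 libraries compared held 41.4 to 47.0 M counts.

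From these counts, edgeR 4.0.16 (R 4.3.3, limma 3.58.1) was run with TMM factors, filterByExpr (14808 of 25611 rows tested) and 1 mean per group over all 30 libraries, which share 1 estimate of the spread (20 residual degrees of freedom). The quasi-likelihood F test was adjusted by Benjamini-Hochberg at 0.05, and the SE is the size of the log2 change divided by the square root of F. Alternatives were DESeq2 1.42.0, other scalings and filters, the 12 libraries alone, replicate blocks and each library left out. The procedure was also run on counts simulated from the fitted spread. Such counts cannot test the choice of scaling, outlying libraries or the part of Jurkat reads. The rule named, among called genes at 5 CPM or more in a group, the 10 with the smallest p in each direction. At the same floor it named the 2 with the smallest p in each class of response. Up to 3 called members of each list were named without that floor. Rn45s and list members given by name only were added after their values were seen. The members and lists were chosen with earlier results of these data known. Same-numbered libraries of untreated KO and WT deviated together (correlations of 0.17 to 0.45), but those of unlike number reached 0.26. The labels state no pairing, and the numbers did not pair the 4 groups together. Some members of the lists are not reported here by name.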

Additional observations from a re-analysis of the deposited data

Results flagged for a closer look

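The test of the difference between the genotypes' responses itself passed for 631 genes, and the 63 genes that the rule for named genes gives are listed here with their interaction (log2, edgeR FDR under 0.05); Rn45s and members given by name only are not among them. Positive values, by size, were Ifi44 1.51, Il1rl1 1.34, Rtp4 1.25, Fosb 1.05, Oas3 0.94, H2-Eb2 0.93, H2-M2 0.88, Egr1 0.88, H2-Q5 0.86, Strip2 0.71, Gcsam 0.71, Cacnb3 0.57, Itga1 0.48, Sh2d5 0.45, Lbh 0.45, Rtl5 0.43. Smaller positive values were Ddit4 0.42, Il16 0.36, H2-Q4 0.35, Zfp467 0.33, Snx22 0.32, Zfp598 0.31, Atg16l2 0.29, Ccnb1 0.28, H2-K1 0.18. Negative values, by size, were Xcl1 -1.45, Hdc -1.38, Ccl7 -1.07, Zfp599 -0.86, Mtus1 -0.85, Lck -0.85, Mertk -0.84, Rag2 -0.78, Mid1 -0.74, Il1rn -0.69, Plaur -0.63, Rag1 -0.63, Rin2 -0.61, Tfdp2 -0.60, Optn -0.58, Itgae -0.53, Hsph1 -0.53, Prdx1 -0.48. Smaller negative values were Socs3 -0.46, Myc -0.43, Fdft1 -0.43, Asns -0.38, Sqle -0.34, P4ha1 -0.32, Tyms -0.31, Hsp90ab1 -0.31, Dnajb1 -0.30, Mvd -0.29, Fth1 -0.28, Havcr2 -0.26, Hk1 -0.24, Edem1 -0.23, Pgd -0.22, Ifnar2 -0.21, Scarb2 -0.20, Mcm6 -0.20. Still smaller negative ones were Pgk1 -0.19, Npc2 -0.19. None of the 63 named genes changed sign in any alternative that could be fitted, and 32 kept their call in all of them.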

How the results depend on the processing

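The count of 631 genes was 337 with the 12 libraries alone. The labels number replicates alike. Same-numbered libraries deviated together between untreated KO and WT (correlations of 0.17 to 0.45, against -0.41 to 0.26 for unlike numbers). They did so less between treated and untreated KO (0.03 to 0.23). They did not between treated and untreated WT (-0.27 to 0.06) or treated KO and WT (-0.23 to 0.00), so the numbers do not pair all 4 groups. With a replicate block the count was 239 (shared by the genotypes) or 217 (within genotype); 1201 genes differed between untreated genotypes with the shared block, and 521 between untreated and 624 between treated genotypes with the block within genotype. The 6 genes with a genotype difference in the OVA response were 11 without a filter, 10 with at least 5 CPM in 3 libraries and 25 in DESeq2. Without 1 library the 631 genes were 362 (untreated WT replicate 2) to 637; the count was 363 without treated WT replicate 2, 379 and 416 without untreated KO replicates 1 and 2, and 382 without treated KO replicate 3. It was 439 without treated KO replicate 2, the library high in Rn45s. The other counts ranged from 898 (untreated KO replicate 1; 984 without untreated WT replicate 2) to 1564 for untreated genotypes, 2189 (treated WT replicate 2) to 3506 for treated genotypes, 3 (untreated KO replicate 2) to 8 for OVA, 226 (treated KO replicate 3) to 403 for Jurkat cells against OVA and 665 (treated WT replicate 2) to 1374 for 4 h against 30 min. In all 21 alternatives 104 of the 631 genes kept their call, 68 positive and 36 negative. The causes were not tested.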
